A study of Homo sapiens with 9 samples.

Results

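STC2, GDF15, FGF21, ADM2, VEGFA and IGFBP1 encode hormones and other secreted proteins that liver cells make more of under stress. They were found by symbol in the deposited table, 6 genes of 20379, and 5 of them had enough reads to be fitted among the 12657 genes tested, the exception being FGF21. The rule names genes by function and has no threshold, but the 6 were also selected on earlier differences in their counts between siRNA and control libraries. Their differences from control are therefore given as a description, with intervals and without p-values or calls.

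The integrated stress response starts when kinases that sense lack of amino acids, misfolded protein, mitochondrial faults or viral RNA phosphorylate the initiation factor eIF2. General translation then slows, while the transcription factor ATF4 is translated more and switches on genes for amino acid supply together with secreted factors such as FGF21 and GDF15. The same secreted factors also answer to other signals: VEGFA to hypoxia, GDF15 to p53, IGFBP1 to fasting through FOXO1, and FGF21 to fasting through PPARA.

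The cells were HCCLM3, an established human hepatocellular carcinoma line, transfected with siRNA against UXS1, with siRNA against MRPL42 or with a non-targeting control siRNA, 3 libraries of poly(A) RNA in each group. UXS1 makes UDP-xylose, the sugar donor that starts glycosaminoglycan chains, and MRPL42 belongs to the mitochondrial ribosome. The sources used here do not give the siRNA sequences, the dose or the time after transfection, and all groups share the line and the transfection. Nothing in the labels ties the 3 libraries of a group to different cultures, and their spread, on which every p-value rests, may be purely technical.

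Library totals lay between 15265959 and 22400560 estimated counts. UXS1 mRNA was at 138 to 145 CPM (counts scaled to a common library total) with UXS1 siRNA, against 144 to 180 CPM with control siRNA (log2 fold change -0.17, edgeR adjusted p = 0.348). MRPL42 mRNA was at 81.8 to 104 CPM with MRPL42 siRNA, against 100.4 to 147 CPM with control siRNA (log2 fold change -0.39, edgeR adjusted p = 0.185). Between the 2 siRNAs, MRPL42 mRNA was higher in all UXS1 siRNA libraries than in all MRPL42 siRNA libraries. Its log2 fold change there was 0.41 (95% interval 0.10 to 0.73, edgeR adjusted p = 0.9998), and that of UXS1 mRNA was -0.07 (-0.26 to 0.13). Neither siRNA lowered its own target past the test, so the groups are called by the siRNA in their labels. Control library c stood apart: its log2 CPM correlated at 0.951 to 0.961 with the others, while the other 8 correlated with each other at 0.983 or more, and the common coefficient of variation was 0.130 with it and 0.0753 without it. The 10 hepatocyte markers summed to 227 to 236 CPM with UXS1 siRNA and 207 to 225 CPM with MRPL42 siRNA, against 187 to 235 CPM with control siRNA, and 3 of them, APOA1, APOA2 and TTR, were below 1 CPM in all libraries. In control c this marker list lay 1.15 log2 units below its mean over the libraries (-1.15) and a list of nuclear-retained and histone RNAs, a sign of RNA quality, lay 0.77 above it. That RNA-quality list also separated the other controls, at -0.76 in control a and -0.29 in control b, from the UXS1 and MRPL42 siRNA libraries at -0.07 to 0.19. The 729 tested genes with transcripts shorter than 1000 bases, another sign of RNA or library quality, had mean centred log2 CPM of 0.04 to 0.23 with UXS1 siRNA and -0.14 to 0.39 with MRPL42 siRNA, against -0.40 to -0.22 with control siRNA, so that all 3 controls were below the other 6 libraries. The 7 fibroblast markers summed to 59.1 to 64.1 CPM with UXS1 siRNA and 56.2 to 61.7 CPM with MRPL42 siRNA, against 53.9 to 303 CPM with control siRNA, where lumican (LUM) gave 277 CPM in control c, while COL1A1, COL1A2, PDGFRB and ACTA2 stayed below 1 CPM in all libraries. The 6 leukocyte markers summed to 10.03 to 10.9 CPM with UXS1 siRNA and 8.24 to 8.92 CPM with MRPL42 siRNA, against 2.17 to 7.997 CPM with control siRNA, while PTPRC, CD14, CD3E and CSF1R stayed below 1 CPM in all libraries. The part of these differences in the results was not tested, and results are given with and without control c.

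The bases before the start sites are shown because the transcription factors of stress programs bind there. The RefSeq promoter table used here holds 4 of the 6 genes on GRCh38.p14, STC2 on the minus strand at chr5:173328415-173328664, GDF15 on the plus strand at chr19:18385908-18386157, FGF21 on the plus strand at chr19:48755274-48755523 and ADM2 on the plus strand at chr22:50481293-50481542. Each line holds the 250 bases before the start, 5′ to 3′ in the direction of the gene, with capitals marking matches to the motifs listed after them.
STC2: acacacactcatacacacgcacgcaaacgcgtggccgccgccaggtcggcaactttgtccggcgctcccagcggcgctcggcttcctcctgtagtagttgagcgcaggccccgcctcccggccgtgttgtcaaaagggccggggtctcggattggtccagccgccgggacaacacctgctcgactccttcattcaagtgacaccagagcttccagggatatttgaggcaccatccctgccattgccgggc
GDF15: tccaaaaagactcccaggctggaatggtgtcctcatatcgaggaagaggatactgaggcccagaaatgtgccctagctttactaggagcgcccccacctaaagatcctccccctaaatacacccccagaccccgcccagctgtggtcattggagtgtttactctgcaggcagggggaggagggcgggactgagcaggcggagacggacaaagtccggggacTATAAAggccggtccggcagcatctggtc
FGF21: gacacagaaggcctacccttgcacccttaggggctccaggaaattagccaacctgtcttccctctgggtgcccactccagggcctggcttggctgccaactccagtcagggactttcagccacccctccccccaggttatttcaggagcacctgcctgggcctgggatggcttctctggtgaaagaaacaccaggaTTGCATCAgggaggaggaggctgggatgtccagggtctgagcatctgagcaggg
ADM2: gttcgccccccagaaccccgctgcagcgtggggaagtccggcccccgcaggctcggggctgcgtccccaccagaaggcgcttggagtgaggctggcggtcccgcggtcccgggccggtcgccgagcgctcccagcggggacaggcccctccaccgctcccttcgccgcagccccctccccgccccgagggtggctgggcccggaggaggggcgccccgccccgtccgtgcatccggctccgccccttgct

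Both strands of these windows and of the 50 bases after the start were searched for 5 motifs. TGATGNAA, the composite site of C/EBP and ATF4, is in 3.62% of the 35116 RefSeq promoter windows of the same length. The cyclic AMP response element TGACGTCA is in 1.85%, the hypoxia response element core ACGTG in 21.4%, the ER stress element in 0.0769% and the TATA box TATAAA in 11.5%. ACGTG can overlap the end of the ER stress element. FGF21 holds the composite site on the opposite strand at bases -54 to -47 from the start, and GDF15 holds a TATA box at bases -29 to -24. The windows of STC2 and ADM2 hold none of the 5, which says only that these letters are not there. ADM2 has the window richest in G and C, at 78.8%, against 63.6% in STC2, 60.0% in FGF21 and 58.4% in GDF15. The RefSeq starts of STC2 and GDF15 lie inside the GENCODE 29 genes, chr5:173314713-173329503 for STC2 and chr19:18374731-18389176 for GDF15, so other start sites of these genes were not searched.

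STC2 and GDF15 had the same order of groups. STC2, stanniocalcin 2, is a secreted glycoprotein that inhibits the pappalysin proteases, which cut binding proteins off insulin-like growth factors. Its level was 53.6, 59.9 and 60.3 CPM in UXS1 siRNA libraries a, b and c and 66.5, 58.2 and 62.8 CPM in libraries a, b and c of MRPL42 siRNA, against 102, 93.7 and 113 CPM in control siRNA libraries a, b and c. All 6 libraries of UXS1 and MRPL42 siRNA were below all 3 controls, and the UXS1 and MRPL42 siRNA groups overlapped. The fitted log2 fold change was -0.83 ± 0.09 (SE) for UXS1 siRNA against control siRNA, which is 43.6% lower, and -0.72 ± 0.09 for MRPL42 siRNA against control siRNA, which is 39.1% lower. Less RNA per cell and fewer cells that express a gene cannot be told apart in these bulk libraries.

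GDF15, growth differentiation factor 15, is a distant member of the transforming growth factor beta family that lowers food intake through a receptor in the hindbrain. It stood at 57.3, 66.1 and 53.8 CPM in UXS1 siRNA libraries a, b and c and at 73.5, 58.2 and 67.6 CPM in libraries a, b and c of MRPL42 siRNA, against 111, 96.8 and 122 CPM in control siRNA libraries a, b and c. The highest UXS1 or MRPL42 siRNA library was still below the lowest control. The log2 fold change was -0.89 ± 0.12 for UXS1 siRNA, 46.2% lower than control siRNA, and -0.73 ± 0.12 for MRPL42 siRNA, 39.6% lower.

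IGFBP1, insulin-like growth factor binding protein 1, is released by the liver in fasting, holds insulin-like growth factors in the circulation and binds integrin on cells. Its level was 46.6, 48.9 and 46.1 CPM in UXS1 siRNA libraries a, b and c and 51.9, 40.5 and 46.4 CPM in libraries a, b and c of MRPL42 siRNA, against 90.3, 85.3 and 127 CPM in control siRNA libraries a, b and c. Neither the UXS1 nor the MRPL42 siRNA group overlapped with control, and control c was the highest library. The log2 fold change was -1.10 ± 0.15 for UXS1 siRNA (53.2% lower) and -1.12 ± 0.15 for MRPL42 siRNA (54.1% lower). Without control c it was -0.91 for UXS1 siRNA and -0.93 for MRPL42 siRNA.

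VEGFA, the growth factor that drives new vessels through KDR and FLT1 on endothelial cells, differed least of the 5 in the main fit of all 9 libraries. It was at 39.3, 38.6 and 37.0 CPM in UXS1 siRNA libraries a, b and c and at 41.9, 36.7 and 38.5 CPM in libraries a, b and c of MRPL42 siRNA, against 57.4, 52.6 and 48.3 CPM in control siRNA libraries a, b and c. The UXS1 and MRPL42 siRNA groups overlapped with each other but not with control, where control c was the lowest. The log2 fold change was -0.46 ± 0.08 for UXS1 siRNA (27.5% lower) and -0.43 ± 0.08 for MRPL42 siRNA (26.0% lower).

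ADM2, adrenomedullin 2 or intermedin, is a peptide hormone of the calcitonin family that relaxes vessels. Its level was 10.1, 14.1 and 10.6 CPM in UXS1 siRNA libraries a, b and c and 13.1, 8.86 and 11.98 CPM in libraries a, b and c of MRPL42 siRNA, against 32.8, 25.6 and 6.89 CPM in control siRNA libraries a, b and c. Control c was the lowest of all 9 libraries, so the UXS1 and MRPL42 siRNA groups both overlapped with control. The log2 fold change was -0.90 ± 0.45 for UXS1 siRNA (95% interval -1.91 to 0.10) and -0.94 ± 0.45 for MRPL42 siRNA (-1.95 to 0.07). Without control c the values were -1.33 (-1.72 to -0.94) for UXS1 siRNA and -1.37 (-1.77 to -0.98) for MRPL42 siRNA. Without control a, which was the highest library, they were -0.48 for UXS1 siRNA and -0.52 for MRPL42 siRNA.

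FGF21, fibroblast growth factor 21, is a fasting hormone of the liver that signals through FGF receptors with the coreceptor KLB. It had 0 counts in all UXS1 siRNA libraries and in MRPL42 siRNA libraries a and b, 1 count in MRPL42 siRNA library c (0.0528 CPM) and 0 counts in all control siRNA libraries. A count of 0 allows up to 3 counts, which is 0.134 to 0.196 CPM depending on the library and covers counting error only. No difference was detectable at this depth.

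**Figure D1:**
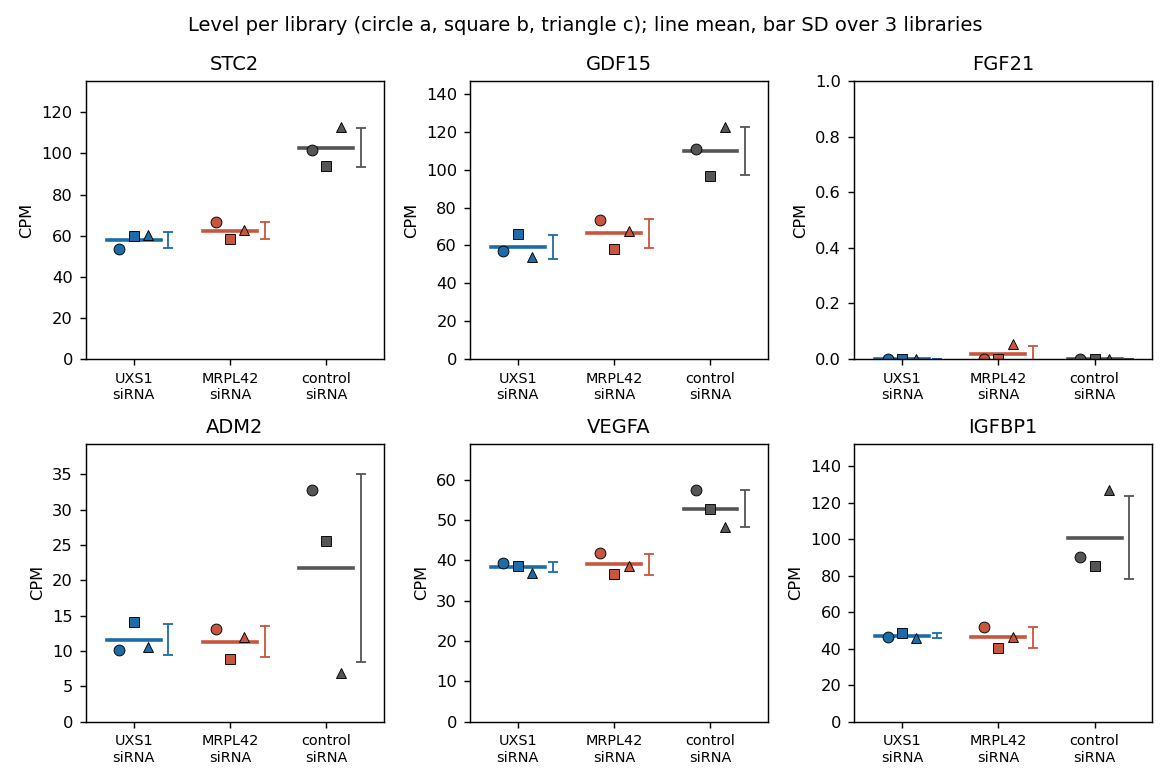
CPM (linear axis from 0) of each gene by siRNA group. Circles, squares and triangles are libraries a, b and c, horizontal lines are group means and bars are SD over 3 libraries. STC2, GDF15, VEGFA and IGFBP1 are lower in all 6 libraries of UXS1 and MRPL42 siRNA than in all 3 controls, while the ADM2 level of control c, 6.89 CPM, lies under all other libraries.

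**Figure D2:**
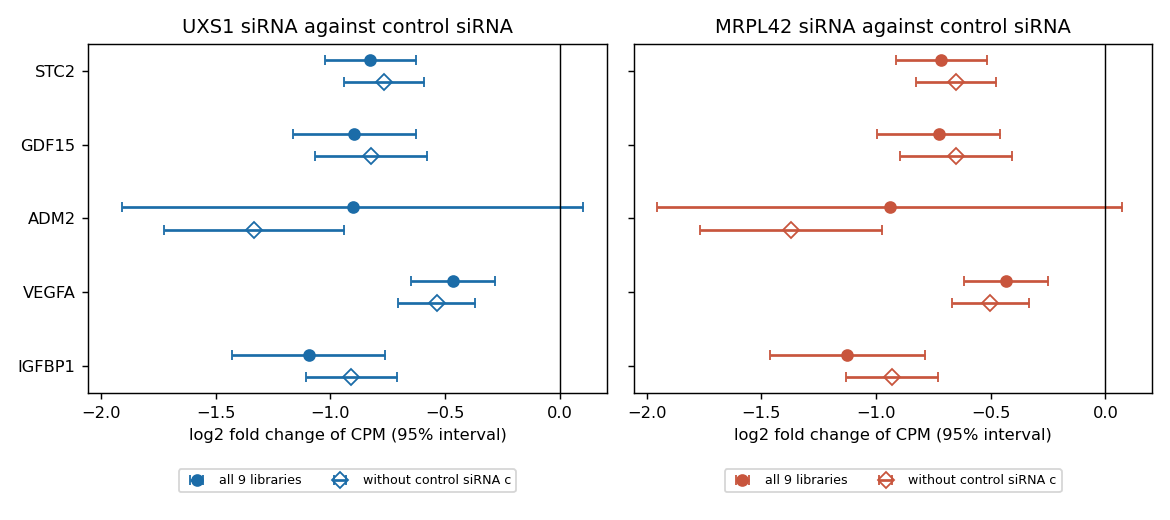
Fitted log2 fold change of CPM (horizontal axis) with its 95% interval, for UXS1 siRNA (left) and MRPL42 siRNA (right) against control siRNA. Filled circles use all 9 libraries and open diamonds leave out control siRNA c. All values lie below 0, and the ADM2 intervals cross 0 only with control c included.

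The 2 comparisons share the control libraries, so the likeness of UXS1 and MRPL42 siRNA within them is not independent. All UXS1 siRNA libraries were below all controls in 4 of the 5 fitted genes and in 10.9% of all genes. All MRPL42 siRNA libraries were below all controls in 4 of the 5 and in 10.5% of all genes. The choice of the 6 genes used these contrasts, so nothing is read from these counts. Over all genes, the edgeR threshold (adjusted p below 0.05) was passed by 0.0158% with UXS1 siRNA against control siRNA, which is 2 genes, and by 0% with MRPL42 siRNA against control siRNA, although 2561 genes had an unadjusted p below 0.05 there. Without control c, 1.07% of genes passed as lower with UXS1 siRNA and 0.792% with MRPL42 siRNA.

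The contrast between UXS1 and MRPL42 siRNA uses no control library in its difference and was tested. In UXS1 siRNA against MRPL42 siRNA, 0 of 12657 genes (0%) passed edgeR's threshold, and 218 had an unadjusted p below 0.05. Each of the 5 genes had an edgeR adjusted p of 0.9998 there. The log2 fold change was -0.11 for STC2 (95% interval -0.31 to 0.09) and -0.17 for GDF15 (-0.44 to 0.10). It was -0.03 for VEGFA (-0.21 to 0.16) and 0.03 for IGFBP1 (-0.31 to 0.37). For ADM2 it was 0.04, with the wide interval of -0.99 to 1.07, or -0.35 to 0.43 when control c was left out of the shared spread. These intervals stay within 0.5 log2 units of 0 for 4 genes, and do not show that the 2 siRNAs act alike.

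Between genes, levels are compared as CPM per kilobase of transcript, with the median length of the principal transcripts in GENCODE 29. GDF15 was the most abundant of the 6, with a mean of 49.2 CPM per kilobase in UXS1 siRNA and 55.4 in MRPL42 siRNA, against 91.6 in control siRNA. It ranked 1594 with UXS1 siRNA and 1427 with MRPL42 siRNA, against 697 with control siRNA, among 20104 genes with a length. IGFBP1 was at 28.6 CPM per kilobase in UXS1 siRNA and 27.98 in MRPL42 siRNA, against 61.0 in control siRNA. STC2, whose transcript of 5.35 kilobases is the longest of the 6, was at 10.8 CPM per kilobase in UXS1 siRNA and 11.7 in MRPL42 siRNA, against 19.2 in control siRNA. ADM2 was at 4.82 CPM per kilobase in UXS1 siRNA and 4.71 in MRPL42 siRNA, against 9.04 in control siRNA. FGF21 was at 0 CPM per kilobase in UXS1 siRNA and 0.016 in MRPL42 siRNA, against 0 in control siRNA. In all 3 groups no library range of one of these genes reached that of the next, in the order GDF15, IGFBP1, STC2, ADM2, FGF21.

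The place of VEGFA in this order depends on the splice form taken for its length. With its principal transcripts of 1.199 kilobases it was at 31.9 CPM per kilobase in UXS1 siRNA and 32.6 in MRPL42 siRNA, against 44.0 in control siRNA, above STC2 in each group. It was then higher than IGFBP1 in UXS1 siRNA, overlapped with it in MRPL42 siRNA and was lower than it in control siRNA. With its longest transcript of 3.535 kilobases it was at 10.8 CPM per kilobase in UXS1 siRNA and 11.1 in MRPL42 siRNA, against 14.9 in control siRNA. That put it within the spread of STC2 in the UXS1 and MRPL42 siRNA groups and below STC2 in control siRNA. The order of the other 5 genes was the same with their longest transcripts.

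Some close relatives were abundant and others had no counts. ADM, adrenomedullin, the better known relative of ADM2, was at 37.8 ± 1.28 CPM per kilobase in UXS1 siRNA and 40.5 ± 0.99 in MRPL42 siRNA, against 35.5 ± 3.33 in control siRNA (SD, n = 3 each). VEGFB was at 34.8 ± 4.04 CPM per kilobase in UXS1 siRNA and 36.1 ± 4.21 in MRPL42 siRNA, against 29.96 ± 5.81 in control siRNA. IGFBP4, another binding protein of insulin-like growth factors, was at 103 ± 6.81 CPM per kilobase in UXS1 siRNA and 107 ± 5.83 in MRPL42 siRNA, against 138 ± 39.2 in control siRNA. STC1, FGF19, FGF23, IAPP and VEGFC had 0 counts in all 9 libraries. Of the 17 relatives 7 could be tested, and their median log2 fold change was 0.22 with UXS1 siRNA and 0.27 with MRPL42 siRNA, against control siRNA, beside -0.00 and -0.01 over all genes. Without control c it was 0.07 with UXS1 siRNA and 0.15 with MRPL42 siRNA. With all 9 libraries none of the 7 passed edgeR's test. Without control c, IGFBP3 rose with UXS1 siRNA (log2 fold change 0.58, edgeR adjusted p = 0.0330), where 0.502% of genes rose, and IGFBP6 rose with MRPL42 siRNA (0.62, edgeR adjusted p = 0.0459), where 0.533% did. IGFBP3 and IGFBP6 each passed in 1 comparison only, on the other side of 0 from IGFBP1. IGFBP4 lay on the side of IGFBP1 with MRPL42 siRNA and did not pass. Its log2 fold change there was -0.37 with all 9 libraries and -0.12 without control c.

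The receptors and partners ranged from no counts to well expressed. FGFR4, an FGF receptor, was at 16.7 ± 1.58 CPM per kilobase in UXS1 siRNA and 17.3 ± 1.35 in MRPL42 siRNA. In control siRNA FGFR4 was at 16.2 ± 4.84 CPM per kilobase. GFRAL and RET, the receptor pair of GDF15, had 0 counts in all 9 libraries, as did FLT1, FGFR2 and RAMP3. KLB, which FGF21 needs, was at 0.15 CPM per kilobase in UXS1 siRNA and 0.12 in MRPL42 siRNA, against 0.14 in control siRNA. CALCRL, the core of the ADM2 receptor, was at 0.043 CPM per kilobase in UXS1 siRNA and 0.055 in MRPL42 siRNA, against 0.027 in control siRNA. RAMP1, a partner of CALCRL, was at 41.1 ± 6.55 CPM per kilobase in UXS1 siRNA and 42.9 ± 17.8 in MRPL42 siRNA, against 16.6 ± 9.30 in control siRNA, where control c had 6.29. Its log2 fold change of 1.31 ± 0.44 (SE) with UXS1 siRNA and 1.37 ± 0.44 with MRPL42 siRNA did not pass edgeR's test (adjusted p = 0.204 with UXS1 siRNA, 0.153 with MRPL42 siRNA). The VEGFA receptor KDR was at 4.59 ± 0.34 CPM per kilobase in UXS1 siRNA and 5.28 ± 0.81 in MRPL42 siRNA, against 3.88 ± 2.79 in control siRNA. Of 5 endothelial markers, CDH5 had 0 counts in all libraries, and VWF, TEK and CLDN5 stayed below 1 CPM. With PECAM1, the 5 summed to 33.8 to 39.1 CPM in UXS1 siRNA and 30.8 to 35.6 CPM in MRPL42 siRNA. In control siRNA they summed to 20.4 to 36.1 CPM. NRP1, a coreceptor of VEGFA, reached 30.3 ± 1.80 CPM per kilobase in UXS1 siRNA and 31.4 ± 1.90 in MRPL42 siRNA, against 36.1 ± 8.15 in control siRNA. PAPPA, the protease that STC2 inhibits, had mean levels of 0.018 CPM per kilobase in UXS1 siRNA and 0.011 in MRPL42 siRNA, against 0.0081 in control siRNA. Of the 21 receptors and partners 13 could be tested and none passed, with or without control c.

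**Figure D3:**
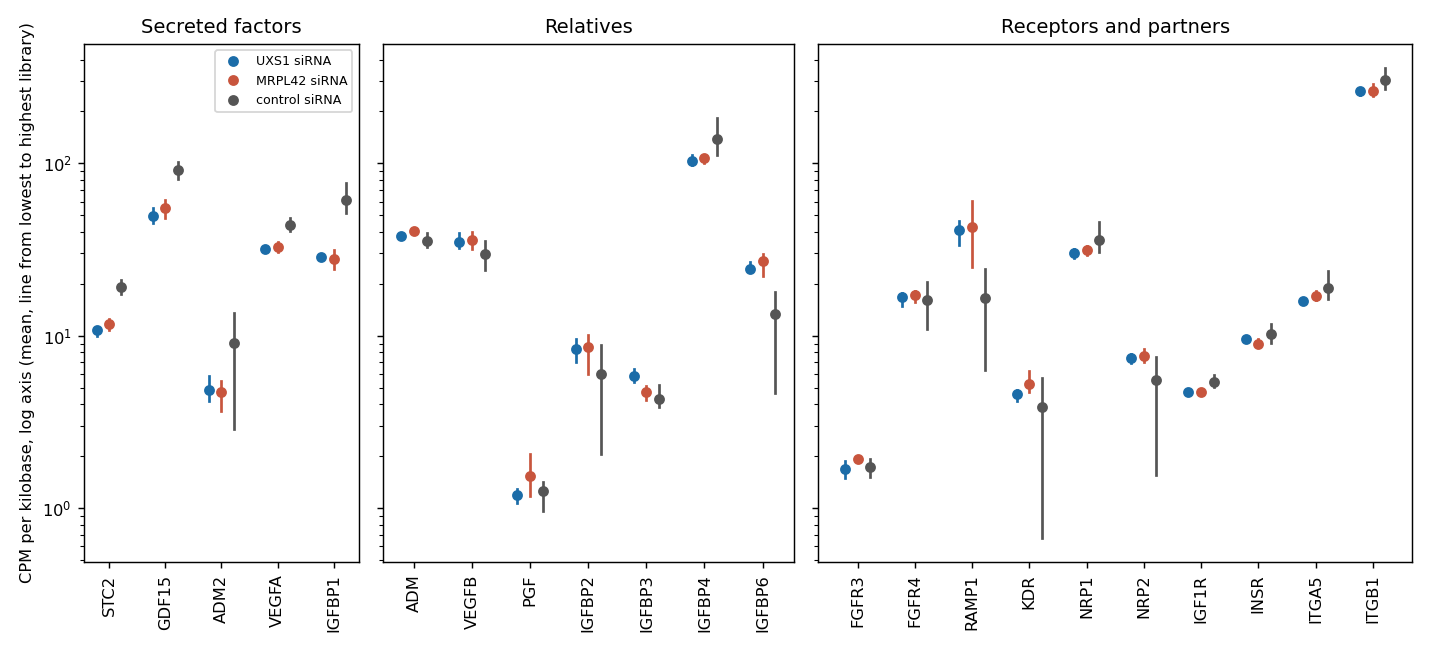
Mean CPM per kilobase of transcript on a log axis, with a line from the lowest to the highest library, for the secreted factors, their relatives and their receptors and partners that reached 1 CPM per kilobase in at least 1 library. Colours are UXS1 siRNA, MRPL42 siRNA and control siRNA from left to right at each gene. Of the secreted factors shown, GDF15 lies highest in each group and ADM2 lowest, at 4.82 CPM per kilobase in UXS1 siRNA and 4.71 in MRPL42 siRNA, against 9.04 in control siRNA.

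Profiles were compared as the root mean square difference of log2 CPM, each gene centred on its mean over the 9 libraries, among 10552 genes with a mean of at least 5 CPM. Since all 9 libraries enter, the values describe the group differences as well as the libraries. The profile of STC2 was nearest to CPLX2 (0.080), the cell cycle inhibitor CDKN2B (0.087) and GDF15 (0.094). That of GDF15 was nearest to STC2 (0.094), the transcription factor FOXQ1 (0.123) and CPLX2 (0.128). The nearest to IGFBP1 was GDF15 at 0.185, with STC2 at rank 4 (0.195). VEGFA was nearest to DPYSL2 (0.070), the autophagy kinase ULK1 (0.071) and NHSL1 (0.079). ADM2 was nearest to CTH (0.229), which makes cysteine, to asparagine synthetase ASNS (0.244) and to the folate enzyme ALDH1L2 (0.257). STC2 ranked 1935 of 10552 as a neighbour of ADM2.

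Control c sets much of this order. Without it, ADM2 stayed close to ALDH1L2 (0.214) and CTH (0.222), with the glycine transporter SLC6A9 nearest (0.212). STC2 moved to rank 23 among its neighbours (0.333). IGFBP1 was then nearest to CTH (0.063), CBS (0.071) and PSAT1 (0.075), enzymes of cysteine and serine synthesis, with GDF15 at rank 13. GDF15 was nearest to LAT2 (0.058), PLIN4 (0.084) and STC2 (0.097). STC2 was nearest to PLIN4 (0.055), the amino acid transporter SLC1A4 (0.056) and GPT2 (0.065). VEGFA was nearest to C5AR2 (0.055), BMP6 (0.063) and DPYSL2 (0.064). Of the first 3 neighbours, CTH and ALDH1L2 were shared by both settings for ADM2, STC2 for GDF15 and DPYSL2 for VEGFA, and none was shared for STC2 and IGFBP1.

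In control c, genes of the integrated stress response lay on both sides of the 6 libraries of UXS1 and MRPL42 siRNA. Control c stood apart over all genes, and the share of all genes outside these 6 libraries was not computed. The genes of this list outside them are therefore not counted here. ASNS was at 107, 107 and 119 CPM in UXS1 siRNA libraries a, b and c and at 130.5, 100.3 and 105 CPM in libraries a, b and c of MRPL42 siRNA, against 243, 261 and 85.3 CPM in control siRNA libraries a, b and c. Controls a and b were above all UXS1 and MRPL42 siRNA libraries, and control c was below them. ATF4 mRNA was at 232 to 259 CPM in UXS1 siRNA and 224 to 296 CPM in MRPL42 siRNA, against 332 and 331 CPM in controls a and b and 183 CPM in control c. The list's mean centred log2 CPM was -0.12 to -0.05 in UXS1 siRNA libraries and -0.18 to 0.10 in MRPL42 siRNA libraries, against 0.37, 0.35 and -0.35 in controls a, b and c. For STC2, GDF15 and IGFBP1, control c was the highest library.

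With all 9 libraries, 21 of the 24 genes of the integrated stress response list were below 0 in each comparison with control. Over all genes, 51% were below 0 with UXS1 siRNA and 52.1% with MRPL42 siRNA. None of the 24 passed edgeR's test (0 genes), with a median log2 fold change of -0.24 with UXS1 siRNA and -0.18 with MRPL42 siRNA. Without control c the medians were -0.36 with UXS1 siRNA and -0.35 with MRPL42 siRNA, beside -0.01 over all genes in each, and 10 genes fell with UXS1 siRNA, where 1.07% of all genes fell, and 8 with MRPL42 siRNA, where 0.792% did, while 0 rose. ASNS fell by 1.19 log2 units with UXS1 siRNA and by 1.18 with MRPL42 siRNA (edgeR adjusted p = 0.00108 and 0.00153). SESN2, an inhibitor of mTORC1 signalling, fell by 1.10 with UXS1 siRNA and by 0.90 with MRPL42 siRNA (edgeR adjusted p = 0.0017 and 0.00557). CHAC1, which breaks down glutathione, fell by 1.32 with UXS1 siRNA (edgeR adjusted p = 0.0187), and its value of -0.97 with MRPL42 siRNA did not pass (0.0704). CTH and PSAT1 fell by 0.98 and 0.97 with UXS1 siRNA and by 0.93 and 0.92 with MRPL42 siRNA. They are named as neighbours of IGFBP1, itself selected on its difference from control, so that choice made their fall likely. The same holds for ASNS as a neighbour of ADM2. The list was also chosen with earlier results of these data known. CEBPG, DDIT4, PHGDH and PPP1R15A also fell in both, and TRIB3 fell with UXS1 siRNA. DDIT3, the stress factor CHOP, had a log2 fold change of 0.01 with UXS1 siRNA and 0.07 with MRPL42 siRNA. ATF4 mRNA did not pass, at -0.43 with UXS1 siRNA and -0.36 with MRPL42 siRNA (edgeR adjusted p = 0.0667 and 0.103).

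Other programs known to act on some of the 6 genes were described in the same way, and differences between lists were not tested. Of the 19 genes of the unfolded protein response of the endoplasmic reticulum, the median log2 fold change was 0.04 with UXS1 siRNA and 0.03 with MRPL42 siRNA. Without control c these medians changed sign, to -0.09 with UXS1 siRNA and -0.05 with MRPL42 siRNA, with 13 of 19 genes below 0 in each. Over all genes without control c, 51.8% were below 0 with UXS1 siRNA and 52.3% with MRPL42 siRNA, and 1.07% and 0.792% fell. These shares also stand beside the falls in the hypoxia, p53 and fasting lists that follow. Without control c, 1 of the 19, the sensor ERN1, fell with UXS1 siRNA (-0.47, edgeR adjusted p = 0.0167) and 0 passed with MRPL42 siRNA. Of 14 hypoxia genes, the median was -0.09 with UXS1 siRNA and -0.17 with MRPL42 siRNA, or -0.08 and -0.09 without control c. NDRG1 alone fell without control c, by 0.36 with UXS1 siRNA and by 0.34 with MRPL42 siRNA (edgeR adjusted p = 0.00823 and 0.0153). The glucose transporter SLC2A1, at -1.13 ± 0.47 (SE) with UXS1 siRNA and -1.07 ± 0.47 with MRPL42 siRNA in all 9 libraries, was at -0.13 and -0.07 without control c.

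Of 12 p53 genes, the median was -0.09 with UXS1 siRNA and -0.03 with MRPL42 siRNA, or -0.02 and -0.10 without control c. The death receptor TNFRSF10B alone fell without control c, by 0.35 with UXS1 siRNA and by 0.30 with MRPL42 siRNA (edgeR adjusted p = 0.0114 and 0.0287). Of 12 fasting genes tested, the median was -0.15 with UXS1 siRNA and -0.18 with MRPL42 siRNA, or -0.08 and -0.15 without control c. TXNIP, an inhibitor of glucose uptake, fell without control c by 0.82 with UXS1 siRNA and by 0.92 with MRPL42 siRNA (edgeR adjusted p = 0.0017 and 0.00153), and FOXO3 fell with MRPL42 siRNA (-0.31, edgeR adjusted p = 0.0392). With all 9 libraries 0 genes of any of these lists passed edgeR's test. The median of the 5 fitted secreted factors was -0.89 with UXS1 siRNA and -0.73 with MRPL42 siRNA, or -0.82 and -0.65 without control c, a difference that their choice made likely.

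Other secreted proteins of stressed liver cells did not share one direction. Of 17 tested with all 9 libraries, 9 were below 0 with UXS1 siRNA and 8 with MRPL42 siRNA, with medians of -0.03 and 0.02, and 0 passed edgeR's test. Without control c, where 18 could be tested, the medians were 0.00 with UXS1 siRNA and -0.03 with MRPL42 siRNA. Without control c, AREG, a ligand of the epidermal growth factor receptor, fell with UXS1 siRNA (-0.49, edgeR adjusted p = 0.0109). MANF, a factor released under stress of the endoplasmic reticulum, rose with MRPL42 siRNA (0.47, edgeR adjusted p = 0.0314). INHBE, a liver hormone of the activin family, had 9 or 10 counts in UXS1 siRNA libraries and 2 to 7 counts in MRPL42 siRNA libraries, against 21, 18 and 6 counts in controls a, b and c. In control c, INHBE was thus lower than in controls a and b, but within the counts of MRPL42 siRNA libraries. Without control c its value of -0.97 with UXS1 siRNA and -1.86 with MRPL42 siRNA did not pass (edgeR adjusted p = 0.178 and 0.0591).

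**Figure D4:**
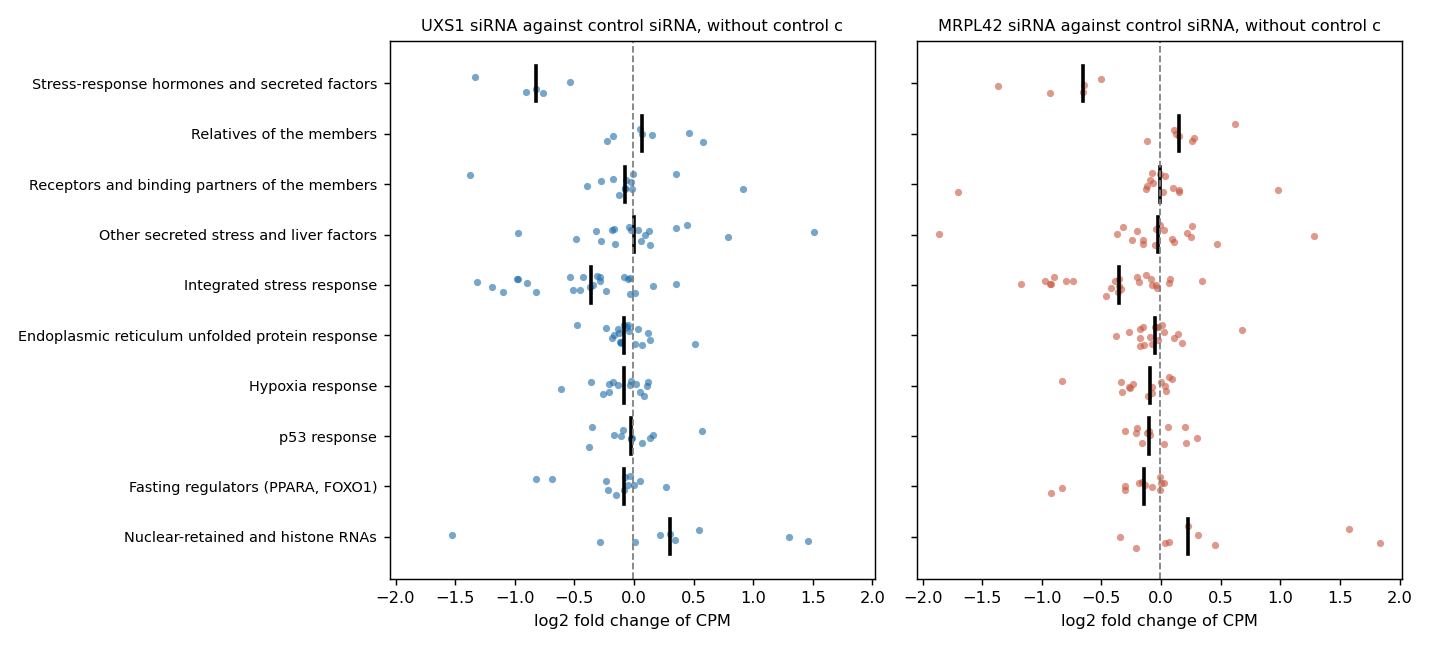
Log2 fold change of CPM (horizontal axis) without control siRNA c for each tested gene of the lists, UXS1 siRNA (left) and MRPL42 siRNA (right) against control siRNA. Points are genes with random vertical spread, black bars are list medians and the dashed line is the median of all genes tested. The integrated stress response list has a median of -0.36 with UXS1 siRNA and -0.35 with MRPL42 siRNA, with 21 of 24 genes below 0 in each. Of the 13 receptors and partners, 11 lie below 0 with UXS1 siRNA and 7 with MRPL42 siRNA. The relatives and other secreted factors lie on both sides of 0. Over all genes 51.8% lie below 0 with UXS1 siRNA and 52.3% with MRPL42 siRNA.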

How the data were processed

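Poly(A) RNA of 9 HCCLM3 libraries was sequenced, 3 per siRNA group. The submitters' processing notes name the build hg38 and the tools edgeR, HISAT2, Bowtie2 and fastp. No source says which did what, in which version, with which annotation or counter, or whether strand was used, so overlapping or antisense genes may share reads. The authors deposited estimated counts per gene, not divided by depth or length. A further 9 columns of per-sample values in the table were not used here. Columns were assigned to groups by name; the UXS1 columns have 2 letters exchanged, and the letters a, b and c are not tied to the repeat numbers of the labels. The design had assumed that counts might need rounding: estimated counts were rounded to whole numbers, with 83.6% to 84.9% of values above 0 whole per library.

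Genes were filtered with filterByExpr, scaled by TMM and fitted over all 9 libraries with edgeR 4.0.16 (R 4.3.3, two-sided quasi-likelihood test, Benjamini-Hochberg over 12657 genes, threshold 0.05). CPM divides by the TMM-adjusted total over tested genes, and levels between genes are CPM per kilobase of GENCODE transcript, where the design had planned TPM. Intervals are 95%. All 36 pairs of libraries differed beyond sampling noise, with a chi-square of at least 3.29 per gene. Floors cover counting error alone, since the labels name no molecular identifiers to remove PCR copies. The procedure was tested on simulated data for the 3 comparisons. It recovered 42.9% to 47.1% of 1.5-fold changes, 74.6% to 77.4% of 2-fold changes and 94.1% to 97.1% of 4-fold changes. There were 3 to 12 false calls per comparison. Genes that did not pass may therefore still differ. Alternatives used DESeq2 1.42.0, limma 3.58.1 (voom), other libraries, no filter and length offsets.

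The members and lists were chosen with earlier results of these data known. Named list genes are up to 3 per list and comparison with the largest change and at least 5 CPM, both targets and the 3 nearest profiles; receptors, relatives, regulators and further genes past the threshold were named after their values were seen. Gene positions are from GENCODE 29, promoters from RefSeq.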

Additional observations from a re-analysis of the deposited data

How the results depend on the processing

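Against control siRNA, the fold changes of STC2, GDF15, ADM2, VEGFA and IGFBP1 stayed below 0 in all 17 alternatives of both comparisons. ADM2 ranged most, from -1.33 without control c to -0.48 without control a with UXS1 siRNA, and from -1.37 to -0.52 with MRPL42 siRNA under the same omissions. GDF15 moved by more than the SD between libraries with the length offset from principal GENCODE transcripts, to -1.12 with UXS1 siRNA and -0.97 with MRPL42 siRNA, and with that from the longest transcripts, chosen after seeing the data, to -1.18 and -1.02. VEGFA moved to -0.68 and -0.66 with the first and stayed at -0.44 and -0.40 with the second. STC2 was at -0.75 with UXS1 siRNA and -0.62 with MRPL42 siRNA under the first. In MRPL42 siRNA, STC2 then differed less than VEGFA. The cause was not tested.

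The number of genes called in UXS1 siRNA against control siRNA was 2 in all 9 libraries, 460 with DESeq2's Wald test (314 higher, 146 lower), 253 with only the 6 libraries compared (231 higher, 22 lower) and 8 with the length offset from principal transcripts or 6 with that from the longest. Leaving out 1 library gave 0 to 355: 355 without MRPL42 siRNA b, 201 without control c and 0 in the 7 other omissions. In MRPL42 siRNA against control siRNA it was 0, with 677 by DESeq2 (522 higher, 155 lower), 4 with the first length offset, 1 with the second and 0 to 810 when 1 library was left out (810 without MRPL42 siRNA b, 169 without control c). UXS1 siRNA against MRPL42 siRNA gave 0 under every alternative, DESeq2 included. There ADM2, VEGFA and IGFBP1 changed sign in 1 or 2 of the 17. DESeq2's size factors, voom and no filter gave 2 and 0 again.

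Levels on the TPM scale were not run, since TPM was not used here. The columns carry letters and not the repeat numbers of the labels. A replicate block on the letter, chosen after seeing the data, gave 0 genes in each comparison, against 2 without it for UXS1 siRNA against control siRNA, and left the 5 fold changes on the same side of 0. Libraries that share a letter did not deviate together (correlation across genes of deviations from group means -0.24 to 0.12, against -0.23 to 0.24 between letters), so the letters are not taken to pair the libraries. Depth limits FGF21 and the receptors with few counts.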
